A study of Mus musculus with 6 samples.

Results

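The HoxD cluster is the group of 9 Hox genes on mouse chromosome 2 that runs from Hoxd13 through Hoxd12, Hoxd11, Hoxd10, Hoxd9, Hoxd8, Hoxd4 and Hoxd3 to Hoxd1. Rybp binding over it was read by ChIP-chip, that is chromatin immunoprecipitation hybridised to promoter arrays, in embryonic stem (ES) cells of the mouse that were Dnmt1-KO, Eed-KO or wild type (WT). The labels call both knockouts constitutive, and they do not give the parental line, the number of clones or which cultures had feeder cells in place of gelatin. Anti-Rybp precipitated DNA (IP, Cy5) and input DNA (Cy3) of 1 genotype shared each of 6 arrays, 1 per genotype for each of 2 array designs. With 1 array per genotype and design there are no replicates and no test, and errors are SDs over neighbouring probes, which hold no variation between cultures or hybridisations. The members were the probes that the array annotation names for a HoxD gene by symbol or by transcript accession. This gave 343 of 474380 non-control probes, all on array 1. The arrays hold 16907 genes with probes under their own symbol, and 8 of the 9 members are among them.

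Hox genes encode homeodomain transcription factors that pattern the body axis, and in the HoxD cluster the genes are switched on in their chromosomal order, from Hoxd1 towards Hoxd13, as the trunk and limbs form. In ES cells the Hox clusters are classic targets of Polycomb group complexes. Polycomb repressive complex 2 (PRC2), of which Eed is a core subunit, methylates lysine 27 of histone H3, and PRC1 ubiquitinates histone H2A. Rybp is a subunit of variant PRC1, which can bind chromatin without that methyl mark. Dnmt1 copies DNA methylation at CG dinucleotides (CpGs) onto newly made DNA strands. The arrays of the knockouts therefore ask how far Rybp at these genes depends on PRC2 and on maintained DNA methylation.

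Each value is a ratio of IP over input on the log2 scale, centred on the array median, so that 0 is the median probe and 1 is 2-fold above it. The probes of 45 to 60 bases had a median spacing of 172 bp and lay between 74460504 and 74566077 of chromosome 2, in coordinates of the array annotation (the sources used here name no genome build for it). The annotation placed 159 of them in promoters, 51 in divergent promoters, 132 inside genes and 1 downstream, and 41 were also named for the neighbouring gene Evx2. Stretches of 16314 bp between Hoxd9 and Hoxd4, 10133 bp between Hoxd4 and Hoxd3 and 11163 bp between Hoxd3 and Hoxd1 held no probe. Hoxd8 had no probe under its own symbol and was reached by accession through 15 probes, the nearest 8096 bp from its start, so it has no value of its own and 8 of 9 members are described.

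The Dnmt1-KO arrays differed from the others over all probes. The ratios of array 1 had an SD of 0.96 in Dnmt1-KO, 0.45 in Eed-KO and 0.41 in WT, and their correlation with probe GC content was 0.45, 0.26 and 0.30 in the same order. The Dnmt1-KO arrays were read on another scanner model with a later extraction version, so genotype and scan cannot be told apart for Dnmt1-KO. Its main HoxD counts and window differences are therefore also given at a common spread. For this the Eed-KO and Dnmt1-KO arrays were set to the median absolute deviation of the WT array. Its single probe ratios are given without that step. So are its values by stretch, by CpG count, by distance to a start and in other choices of windows. In Dnmt1-KO, input was well above background at 312 and IP at 317 of the 343 probes, under a stricter setting of the software (13 in place of 2.6 times the background SD). In Eed-KO and WT, input passed at all 343 probes and IP at 342 and 343. Occupancy ratios do not measure RNA, so the cell type was not checked against expressed markers.

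The probes that mark the ends of the range are printed first, because the ratios below are read from such short sequences and CpG content differs among them. Capitals mark each CG dinucleotide. The letters are those of the array files, whose strand is not stated.
Highest in Dnmt1-KO, Hoxd13, chr2:74469515-74469559: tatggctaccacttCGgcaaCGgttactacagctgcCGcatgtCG
Highest in Eed-KO, Hoxd13, chr2:74468499-74468558: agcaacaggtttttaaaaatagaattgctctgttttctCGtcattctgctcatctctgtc
Highest in WT, between Evx2 and Hoxd13, chr2:74461019-74461078: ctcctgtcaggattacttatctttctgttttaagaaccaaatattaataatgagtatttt
Highest Hoxd10 probe in WT, chr2:74487830-74487889: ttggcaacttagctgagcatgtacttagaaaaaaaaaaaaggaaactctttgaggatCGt
Highest Hoxd12 probe in WT, chr2:74474559-74474608: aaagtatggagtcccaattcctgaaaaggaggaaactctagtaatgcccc
Highest above WT in Dnmt1-KO, Hoxd9, chr2:74498664-74498723: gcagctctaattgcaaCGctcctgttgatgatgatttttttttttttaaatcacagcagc
Furthest below WT in Dnmt1-KO, Hoxd3, chr2:74540769-74540825: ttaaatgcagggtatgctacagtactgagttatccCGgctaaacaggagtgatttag
Highest above WT in Eed-KO, Hoxd9, chr2:74498913-74498957: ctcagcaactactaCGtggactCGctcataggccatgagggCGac
Furthest below WT in Eed-KO, Hoxd4, chr2:74529147-74529205: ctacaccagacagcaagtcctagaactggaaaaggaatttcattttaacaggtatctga

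Leaving aside 3 probes with a saturated IP channel, the probe with the highest Dnmt1-KO ratio lay 389 bp into Hoxd13, the gene for the most posterior HoxD factor, needed for digits and the urogenital tract. It holds 4 CpGs and had 4.11 in Dnmt1-KO, 1.91 in Eed-KO and 1.42 in WT. The highest Eed-KO probe lay at -620 bp from the Hoxd13 start, with 1.23 in Dnmt1-KO, 2.10 in Eed-KO and 1.62 in WT. The highest WT probe has no CpG and lay at -790 bp from the start of Evx2, the homeobox gene next to Hoxd13. Its ratio was 0.44 in Dnmt1-KO, 1.37 in Eed-KO and 1.81 in WT, so the highest WT and Eed-KO probes were not the highest in Dnmt1-KO. The highest Hoxd10 probe in WT had 1.81 in Dnmt1-KO, 1.53 in Eed-KO and 1.59 in WT, and the highest Hoxd12 probe in WT had 1.83, 1.21 and 1.34 in that order.

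The WT arrays show how Rybp was laid out over the cluster in unmodified cells. Enrichment was spread over most of the probed sequence and was strongest from Hoxd13 to Hoxd9. Ratios of at least 1 were found at 137 HoxD probes in Dnmt1-KO (39.9%), 80 in Eed-KO (23.3%) and 92 in WT (26.8%), against 15.2%, 3.13% and 2.6% of all probes in the same order. With a common spread the order of the genotypes turned, with 32 such HoxD probes in Dnmt1-KO and 70 in Eed-KO against 92 in WT (2.51%, 2.47% and 2.6% of all probes). After normexp background correction 124 in Dnmt1-KO, 49 in Eed-KO and 52 in WT reached 1 (14.0%, 2.39% and 1.79% of all probes). Ratios above 0 were found at 276 HoxD probes in Dnmt1-KO, 316 in Eed-KO and 320 in WT, where 0 is the median of the array, so that 50% of all probes lie below it. The widest gap without probes divides the cluster into 203 probes over 40.5 kb from Hoxd13 to Hoxd9 and 140 probes over 48.7 kb from Hoxd4 to Hoxd1. In the Hoxd13 to Hoxd9 stretch, 102 probes reached 1 in Dnmt1-KO, 72 in Eed-KO and 81 in WT, with medians of 1.01, 0.80 and 0.87. In the Hoxd4 to Hoxd1 stretch, 35 probes reached 1 in Dnmt1-KO, 8 in Eed-KO and 11 in WT, with medians of 0.33, 0.34 and 0.44. Every genotype thus had its higher median in the stretch with the posterior genes.

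**Figure D1:**
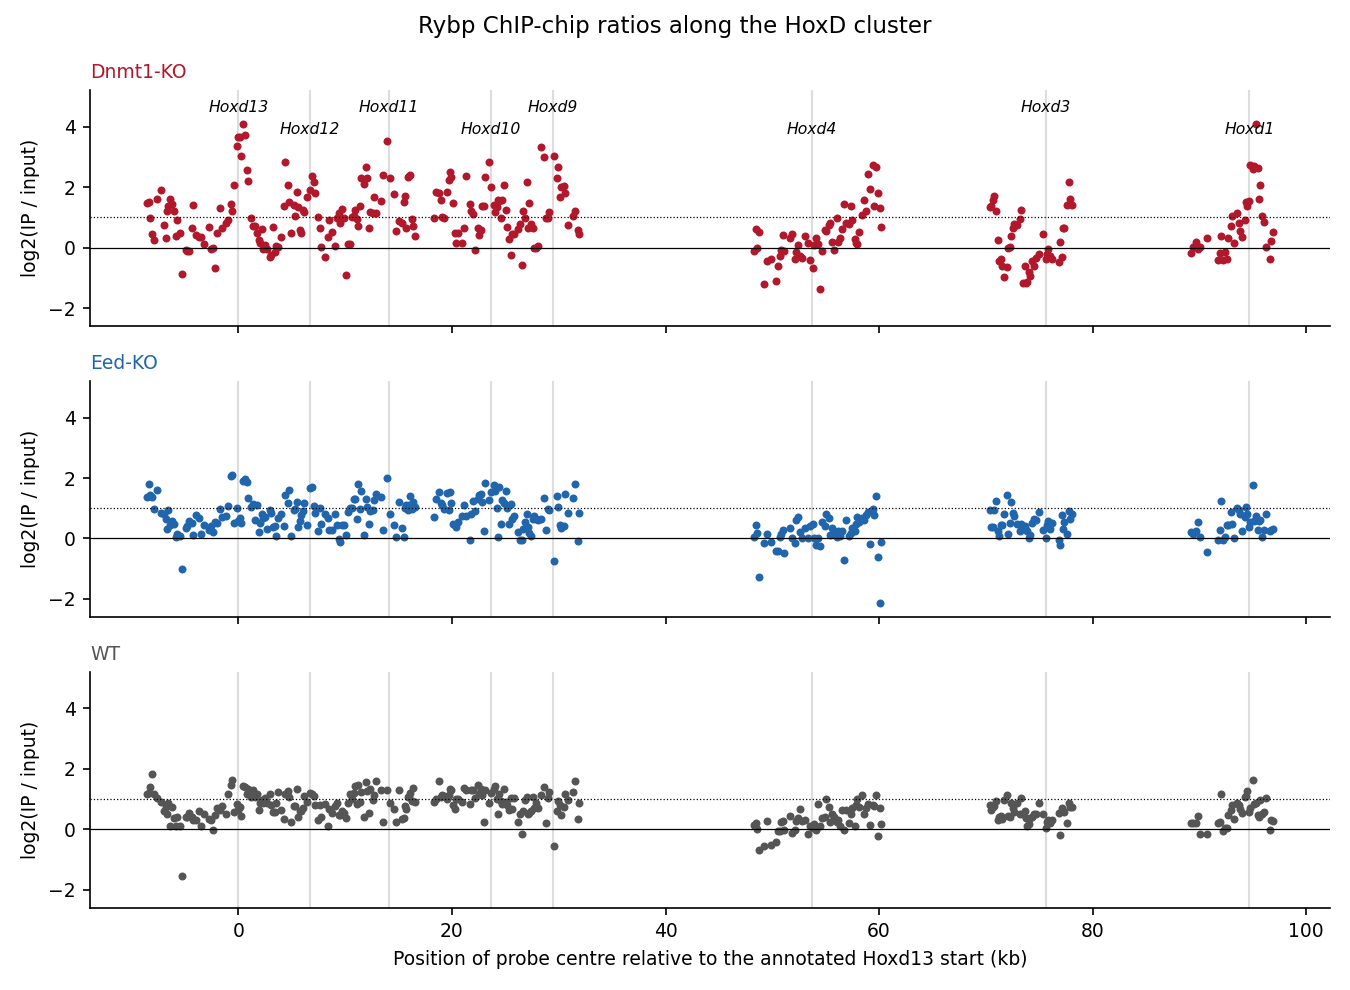
Centred log2(IP / input) of the 343 HoxD probes (points) against the position of the probe centre in kb from the annotated Hoxd13 start, with 1 panel each for Dnmt1-KO, Eed-KO and WT; grey lines are annotated gene starts, the solid line is 0 and the dotted line 1. Points scatter widely, with medians of 0.80 in Eed-KO and 0.87 in WT from Hoxd13 to Hoxd9 and of 0.34 in Eed-KO and 0.44 in WT from Hoxd4 to Hoxd1, and Dnmt1-KO points reach 4.11 at Hoxd13 and 4.10 at Hoxd1.

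Probes far from any annotated start also had ratios above the array median. Over 3 kb from the nearest start of any transcript in the array annotation, 60 HoxD probes had medians of 0.40 in Dnmt1-KO, 0.53 in Eed-KO and 0.69 in WT, whereas all 111289 such probes of both designs had medians of -0.22, -0.094 and -0.11. Within 1 kb of such a start, 104 HoxD probes had medians of 1.30, 0.69 and 0.80 in Dnmt1-KO, Eed-KO and WT, against 0.47, 0.12 and 0.16 for all such probes. From the far to the near probes the HoxD median thus differed by more in Dnmt1-KO than in the other genotypes, and the same held over all probes.

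HoxD probes with no CpG were also enriched. The 168 HoxD probes without a CpG had medians of 0.44 in Dnmt1-KO, 0.45 in Eed-KO and 0.55 in WT, against -0.15, -0.06 and -0.07 for the 271659 CpG-free probes of both designs. The 37 HoxD probes with 3 or more CpGs had medians of 1.82 in Dnmt1-KO, 0.56 in Eed-KO and 0.73 in WT, against 1.25, 0.23 and 0.39 for all such probes. Of those 37 probes, 30 reached 1 in Dnmt1-KO, 13 in Eed-KO and 10 in WT, that is 81.1%, 35.1% and 27.0%, against 63%, 8.19% and 7.69% of all probes with as many CpGs. Among the 32 HoxD probes that had no CpG and lay over 3 kb from a start, the medians were 0.15 in Dnmt1-KO, 0.44 in Eed-KO and 0.55 in WT, against -0.26, -0.11 and -0.13 for all such probes. The medians of CpG-free and CpG-rich HoxD probes thus lay further apart in Dnmt1-KO than in Eed-KO or WT. The same held over all probes, with -0.15 and 1.25 in Dnmt1-KO, so this was not particular to HoxD.

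**Figure D2:**
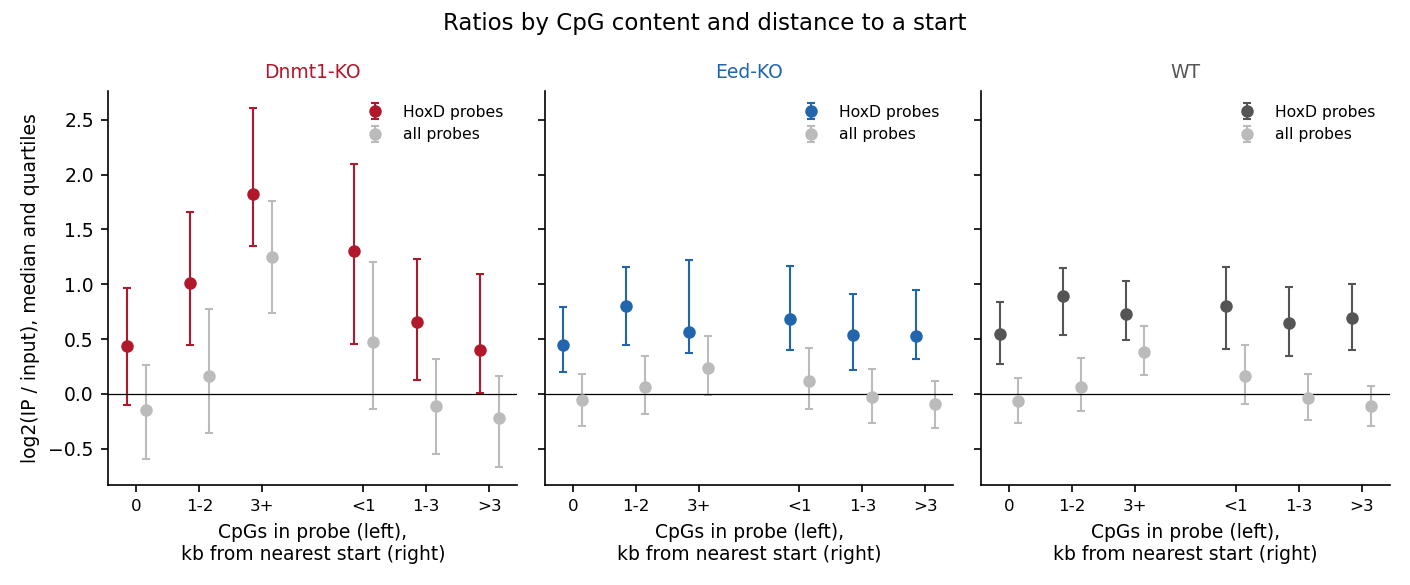
Median log2(IP / input) with the lower and upper quartile (bars) for HoxD probes (coloured) and for all probes of both array designs (grey), by the number of CpGs in the probe and by the distance to the nearest annotated start, for Dnmt1-KO, Eed-KO and WT. HoxD medians lie above those of all probes in each class, and in Dnmt1-KO both sets are highest at 3 or more CpGs, at 1.82 and 1.25.

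To compare genes, each gene was given a window, the run of 6 neighbouring probes, at most 3 kb long, with the highest mean over the 3 genotypes. The window level is the mean of its 6 ratios, and a level of at least 1 was called bound. Among the 8 HoxD windows, 8 were bound in Dnmt1-KO, 4 in Eed-KO and 4 in WT, against 46.1%, 5.76% and 5.15% of all 16327 windows. The 4 windows bound in Eed-KO and in WT were those of Hoxd13, Hoxd12, Hoxd11 and Hoxd10. The median HoxD level was 2.08 in Dnmt1-KO, 1.00 in Eed-KO and 0.94 in WT, against 0.92, 0.21 and 0.27 over all windows. Leaving Dnmt1-KO out of the choice of windows gave 6 of 8 bound in Dnmt1-KO, 5 in Eed-KO and 6 in WT, against 35.2%, 6.6% and 5.82% of all such windows. With a common spread, 2 of 8 windows were bound in Dnmt1-KO (5.76% of all windows), those of Hoxd13 at 1.39 and Hoxd1 at 1.18. The rest then ran from 0.54 at Hoxd3 to 0.91 at Hoxd11. The WT count depended on the summary, with 2 of 8 bound after normexp background correction (2.50% of all windows) instead of 4. Averaged over all probes within 1 kb of the start, 6 members reached 1 in Dnmt1-KO, 2 in Eed-KO and 2 in WT, against 28.6%, 1.69% and 1.45% of 16455 genes.

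Hoxd13 and Hoxd1 had the highest Dnmt1-KO levels of the cluster. Both windows hold probes with a saturated IP channel, so these 2 levels, and their differences from the other genotypes, are lower bounds and their order is not settled. The Hoxd13 window lay in the gene (chromosome 2, 74469252 to 74470063, centred 480.5 bp from the start) and had levels of 3.22 ± 0.74 in Dnmt1-KO, 1.38 ± 0.65 in Eed-KO and 1.08 ± 0.41 in WT (SD over 6 probes). That Dnmt1-KO level lay above 99.5% of all windows, and the Eed-KO and WT levels above 98.4% and 96.3%. All 6 Dnmt1-KO ratios, from 2.20 to 4.11, were above the highest WT ratio of the window, 1.42. The window was chosen in part on those ratios, and with a common spread its Dnmt1-KO level was 1.39. The saturated probe, at 250 bp, read 3.05 in Dnmt1-KO.

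Hoxd12, which acts in the distal limb together with Hoxd13, had levels of 1.84 ± 0.41 in Dnmt1-KO, 1.15 ± 0.48 in Eed-KO and 1.05 ± 0.16 in WT. Its window spans the start (74475243 to 74476336). Hoxd11, which patterns the forearm and the kidney together with Hoxa11, had 2.10 ± 0.85 in Dnmt1-KO, 1.20 ± 0.59 in Eed-KO and 1.07 ± 0.47 in WT (74481800 to 74483365, centred at -668.5 bp). In that window the WT ratios ran from 0.23 to 1.60, and the probe at -152 bp had 3.52 in Dnmt1-KO, 1.99 in Eed-KO and 1.29 in WT. Hoxd10, which acts in lumbar motor neurons and the hindlimb, had the highest Eed-KO and WT levels of the 8, at 1.85 ± 0.66 in Dnmt1-KO, 1.50 ± 0.32 in Eed-KO and 1.19 ± 0.22 in WT (74492232 to 74493315, across the start). Of the 52 Hoxd10 probes, 29 reached 1 in Dnmt1-KO (55.8%), 28 in Eed-KO (53.8%) and 29 in WT (55.8%), against 15.2%, 3.13% and 2.6% of all probes. That made Hoxd10 the member with the highest share of such probes in Eed-KO and WT. In Dnmt1-KO the highest share was that of Hoxd11 (63.6%).

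Hoxd9, a lumbosacral patterning gene, was below the bound level in Eed-KO and WT. Its window, inside the gene (74498913 to 74499777), had 8.77 CpGs per 100 bases, the most of the 8, and levels of 2.09 ± 0.36 in Dnmt1-KO, 0.85 ± 0.52 in Eed-KO and 0.79 ± 0.24 in WT. The highest Hoxd9 probe in Eed-KO and WT was outside it, at 2016 bp from the start, with no CpG and ratios of 1.79 in Eed-KO and 1.60 in WT. The Hoxd9 probe with the greatest excess of Dnmt1-KO over WT lay 92 bp from the start, with 3.03 in Dnmt1-KO, -0.76 in Eed-KO and -0.54 in WT. At that probe the input signal was 674 in Dnmt1-KO, 15436 in Eed-KO and 7159 in WT, and the IP signal was 5064, 9031 and 4814, so the genotypes differed more in input than in IP there.

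The anterior genes Hoxd4 and Hoxd3, which pattern the vertebrae of the neck, had windows away from their annotated starts. The Hoxd4 window lay 5590.5 bp downstream of the start, with 367 bp between its nearest probe and the start of another annotated transcript. Its levels were 2.07 ± 0.65 in Dnmt1-KO, 0.78 ± 0.52 in Eed-KO and 0.73 ± 0.33 in WT (74527904 to 74528852). The 10 probes within 1 kb of the annotated Hoxd4 start averaged -0.18 ± 0.53 in Dnmt1-KO, 0.14 ± 0.29 in Eed-KO and 0.21 ± 0.27 in WT, near the array median in each genotype. The Hoxd3 window lay at -4938.5 bp, between Hoxd4 and the annotated Hoxd3 start, with levels of 1.24 ± 0.52 in Dnmt1-KO, 0.68 ± 0.40 in Eed-KO and 0.69 ± 0.21 in WT (74539472 to 74540237). RefSeq (GRCm38.p6) places its Hoxd3 promoter before that of Hoxd4, and none of the probes lies in it, so these values describe the start that the array annotation names and not the RefSeq one. The 8 probes within 1 kb of the array's start averaged -0.17 ± 0.28 in Dnmt1-KO, 0.46 ± 0.26 in Eed-KO and 0.37 ± 0.25 in WT. Around both starts the Dnmt1-KO mean was the lowest of the 3 genotypes.

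Hoxd1, which acts in sensory neurons of the mouse, had levels of 2.73 ± 0.79 in Dnmt1-KO, 0.74 ± 0.52 in Eed-KO and 0.82 ± 0.43 in WT over the first part of the gene (74563817 to 74564736). The probe at 271 bp stood out in Eed-KO and WT, with 2.60 in Dnmt1-KO, 1.75 in Eed-KO and 1.62 in WT, while the other 5 window probes lay at or below 0.74 in Eed-KO and 0.88 in WT. In Dnmt1-KO the IP channel was saturated at 271 and 457 bp, and the highest of the other 4 probes, at 574 bp, had 4.10. In WT the Hoxd1 level lay below those of the 4 bound genes. In WT the order from high to low was Hoxd10, Hoxd13, Hoxd11, Hoxd12, Hoxd1, Hoxd9, Hoxd4 and Hoxd3. The only neighbours in that order with a gap above the smaller of their probe SDs were Hoxd12 and Hoxd1, 0.23 apart against 0.16. In Eed-KO no neighbouring pair was so far apart, and in Dnmt1-KO only Hoxd12 and Hoxd3 were, 0.61 apart against 0.41.

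**Figure D3:**
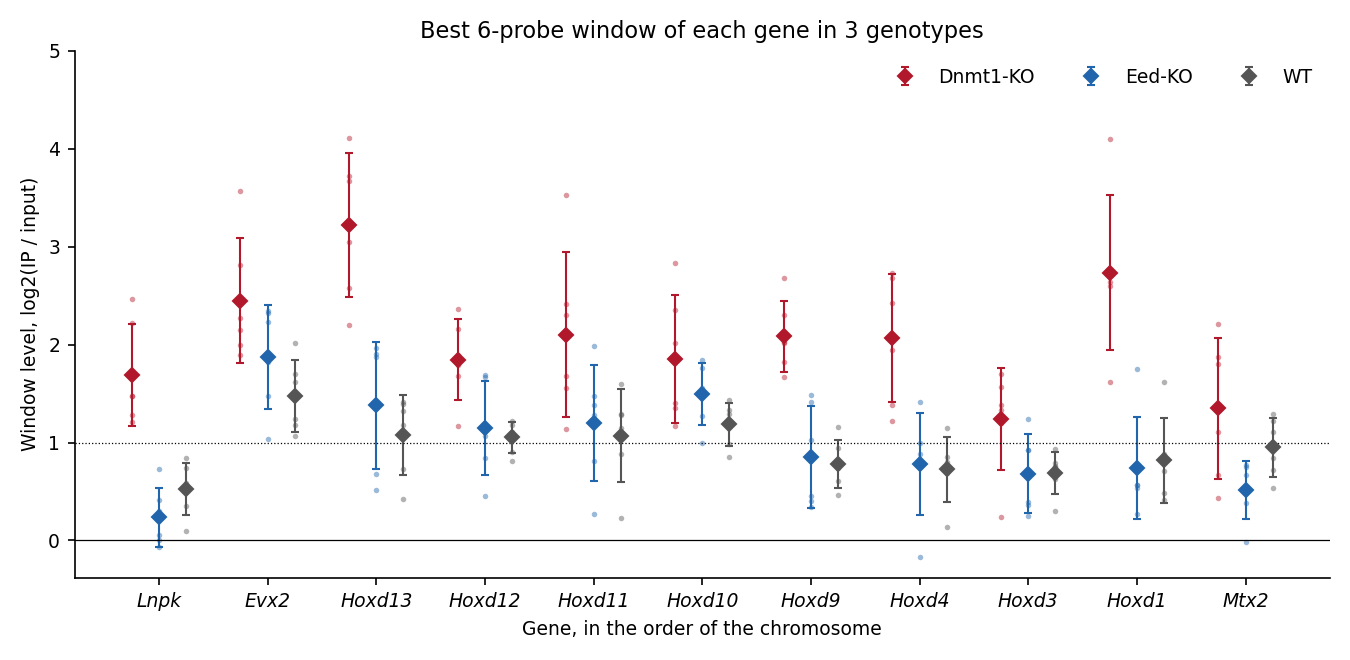
Window levels (diamonds, mean of 6 probes with SD bars) and the 6 probe ratios (points) of the HoxD genes and of the flanking genes Lnpk, Evx2 and Mtx2 in Dnmt1-KO, Eed-KO and WT, in chromosomal order, with the dotted line at the bound level of 1. In WT the windows from Hoxd13 to Hoxd10 lie between 1.05 and 1.19 and the rest of HoxD between 0.69 and 0.82; with a common spread only Hoxd13 and Hoxd1 of the HoxD levels in Dnmt1-KO lie above 1.

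In Eed-KO, no HoxD window differed from WT by more than 0.31. The window differences, Eed-KO minus WT, ran from -0.08 ± 0.18 at Hoxd1 to 0.31 ± 0.21 at Hoxd10 and had a median of 0.08, against -0.04 over all windows. None of the 8 windows was higher or lower by at least 1, against 0.00612% of all windows higher and 0% lower by that much (in each such count, only a window bound in at least 1 of the compared genotypes was called). At Hoxd10 all 6 probes were higher in Eed-KO and at Hoxd13 5 of 6 were, with a difference of 0.30 ± 0.32. Those are differences of 1 array against 1 array, and with a common spread they were 0.22 at both genes. Over single probes the sign was the other way, with 146 of 343 (42.6%) higher in Eed-KO and a median difference of -0.05, against 48.8% of all probes of array 1.

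Probes with high ratios overlapped between Eed-KO and WT. The 66 probes at 1 or above in both were 82.5% of the 80 in Eed-KO and 71.7% of the 92 in WT. This overlap was not set against that of all probes, so it cannot be called a trait of HoxD. Over the 343 probes the ratios of Eed-KO and WT had Pearson's r = 0.82, against 0.74 over the 237195 probes of array 1. This is a description, since neighbouring probes share DNA fragments and the same probe sequence was used in both genotypes. Only 1 probe differed by 1 or more (0.43% of all probes of array 1 were lower and 0.23% higher by as much, or 0.375% and 0.193% with a common spread), the Hoxd4 probe at 6360 bp, with 1.30 in Dnmt1-KO, -2.15 in Eed-KO and 0.72 in WT. Its IP signal was not well above background in Eed-KO, at 21.1 against 581 in WT, so its ratio there is only a bound. The probe with the greatest excess in Eed-KO, at 334 bp in Hoxd9, had 2.31 in Dnmt1-KO, 1.41 in Eed-KO and 0.61 in WT.

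In Dnmt1-KO, 5 of 8 HoxD windows were higher than in WT by at least 1, against 24.9% of all windows, and 0 of 8 were lower, against 0.0184%. The 5 were Hoxd13 at 2.14 ± 0.82, Hoxd1 at 1.91 ± 0.79, Hoxd4 at 1.34 ± 0.60, Hoxd9 at 1.30 ± 0.45 and Hoxd11 at 1.03 ± 1.09. The windows were chosen in part on Dnmt1-KO, and those of Hoxd1, Hoxd4 and Hoxd9 met the bound level through Dnmt1-KO alone. The count of 5 is therefore a description and no test. When Dnmt1-KO was left out of that choice, only Hoxd13 of the 8 was higher by at least 1 (13.8% of all such windows) and 0 of 8 were lower (0.0307%), and the median HoxD difference was 0.50, against 0.33 over all such windows. In the windows first described, the other 3 differences were 0.79 ± 0.40 at Hoxd12, 0.67 ± 0.80 at Hoxd10 and 0.54 ± 0.38 at Hoxd3, and those of Hoxd11 and Hoxd10 were smaller than their probe SD. The median HoxD difference was 1.17, against 0.61 over all windows, and with a common spread it changed sign, to -0.020, against 0.097 over all windows. At that spread none of the 8 windows was higher by at least 1, against 0.0367% of all windows, or lower by as much, against 0.0551%. The differences were then above 0 at Hoxd1 (0.36), Hoxd13 (0.31), Hoxd4 (0.17) and Hoxd9 (0.12). They were below 0 at Hoxd10 (-0.38), Hoxd12 (-0.25), Hoxd11 (-0.16) and Hoxd3 (-0.16). These are the same windows, chosen in part on the unscaled Dnmt1-KO ratios, so the signs at a common spread still carry that choice.

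In these windows, chosen in part on Dnmt1-KO, the 4 with the larger unscaled differences from WT were also the 4 with the most CpGs. Hoxd9, Hoxd13, Hoxd1 and Hoxd4 had 8.77, 6.57, 5.88 and 4.56 CpGs per 100 bases, and the other 4 windows had between 1.31 and 3.52. With the trend on probe GC content removed from each array, the Dnmt1-KO minus WT differences were 1.78 at Hoxd13, 1.31 at Hoxd1, 1.18 at Hoxd4, 0.69 at Hoxd9 and between 0.39 and 0.70 at the other 4 genes. The part of CpG or GC content in these differences was not tested. Most of the values also depend on the window. When only Eed-KO and WT chose the windows, the Dnmt1-KO level was 2.38 at Hoxd13, 1.79 at Hoxd1, 1.27 at Hoxd11, 1.16 at Hoxd4, 0.98 at Hoxd9 and -0.089 at Hoxd3, while the Hoxd12 and Hoxd10 windows stayed in place. The Dnmt1-KO minus WT difference was then 0.73 at Hoxd1, 0.34 at Hoxd4, 0.092 at Hoxd11, -0.042 at Hoxd9 and -0.84 at Hoxd3. Hoxd4 and Hoxd9 thus lay below Hoxd12 (0.79) and Hoxd10 (0.67), and the larger differences were no longer at the same 4 genes. With runs of 4 probes the Hoxd9 difference was -0.023.

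In Dnmt1-KO, high ratios also lay at other places within the cluster. Over the 343 probes, 58 (16.9%) were higher than in WT by at least 1 and 21 (6.12%) lower, against 11.3% and 8.73% of all probes of array 1. With a common spread 3 (0.875%) were higher and 19 (5.54%) lower by at least 1, against 0.96% and 0.984% of all probes of array 1. Ratios above those of WT by any amount were found at 185 HoxD probes (53.9%, against 52% of array 1). With a common spread they were found at 74 (21.6%, against 50.7%). The 62 probes at 1 or above in both were 45.3% of the 137 in Dnmt1-KO and 67.4% of the 92 in WT. Here too the overlap was not set against that of all probes. Pearson's r between Dnmt1-KO and WT was 0.46 (0.53 over all probes of array 1). In the Hoxd13 to Hoxd9 stretch, 42 probes were higher and 10 lower by at least 1, and in the Hoxd4 to Hoxd1 stretch 16 were higher and 11 lower. The probe furthest below WT lay at -3969 bp from the Hoxd3 start, with -0.97 in Dnmt1-KO, 0.80 in Eed-KO and 0.97 in WT. Of the 44 Hoxd3 probes, 22 were below 0 in Dnmt1-KO, the share of all probes on a centred array, against 2 in Eed-KO and 1 in WT.

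Set against Eed-KO, Dnmt1-KO was higher by at least 1 at 4 of 8 HoxD windows (27.6% of all windows), namely Hoxd1 at 2.00 ± 0.92, Hoxd13 at 1.84 ± 0.92, Hoxd4 at 1.29 ± 0.65 and Hoxd9 at 1.23 ± 0.54. The remaining 4 differences ran from 0.36 ± 0.72 at Hoxd10 to 0.90 ± 0.96 at Hoxd11. Hoxd1, Hoxd4 and Hoxd9 met the bound level through Dnmt1-KO alone. The comparison uses the same Dnmt1-KO array as the comparison with WT. When Dnmt1-KO was left out of the choice of windows, 0 of 8 were higher by at least 1, against 2493 of all 16298 such windows. With a common spread the HoxD median, 1.07, changed sign to -0.0050 (0.16 over all windows).

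**Figure D4:**
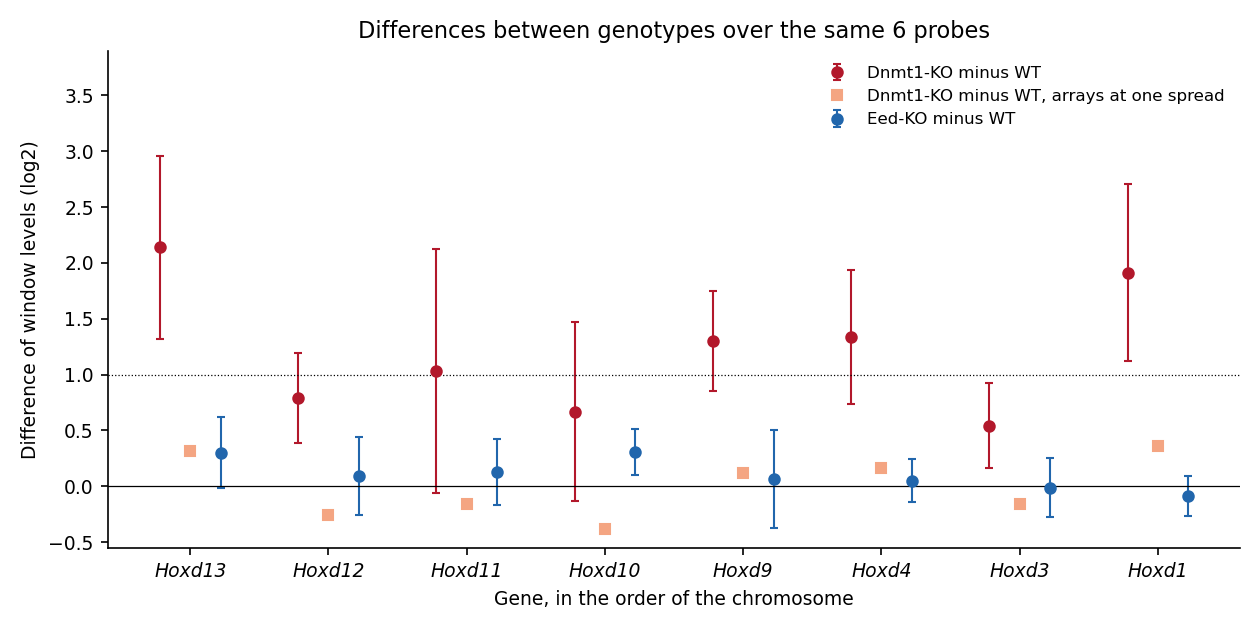
Differences of window levels on the log2 scale for the HoxD genes with a window: Dnmt1-KO minus WT (red circles, SD over 6 probes), the same with the arrays set to a common spread (orange squares) and Eed-KO minus WT (blue circles, SD over 6 probes). Dnmt1-KO differences lie between 0.54 and 2.14 and, with a common spread, between -0.38 and 0.36; Eed-KO differences lie between -0.08 and 0.31.

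The RefSeq promoters of 3 members are shown, picked by their window levels in WT or Dnmt1-KO. They hold the 300 bases from 250 before to 50 after the gene start (GRCm38.p6, plus strand), CG dinucleotides in capitals, and were chosen after the values were seen. Hoxd10 is the member with the highest WT level and Hoxd13 the one with the highest Dnmt1-KO level as read. Its order with Hoxd1 is not settled, because both windows hold saturated probes. Hoxd3 has the lowest WT level, but its RefSeq promoter holds none of the probes, so the next lowest, Hoxd4, is printed.
Hoxd13 promoter, chr2:74667975-74668274: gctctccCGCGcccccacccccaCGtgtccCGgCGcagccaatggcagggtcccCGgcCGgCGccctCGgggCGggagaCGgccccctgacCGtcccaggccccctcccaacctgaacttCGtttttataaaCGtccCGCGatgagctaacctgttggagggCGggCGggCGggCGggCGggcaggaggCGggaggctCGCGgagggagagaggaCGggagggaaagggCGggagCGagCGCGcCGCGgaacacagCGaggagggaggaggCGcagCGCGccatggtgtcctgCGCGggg
Hoxd10 promoter, chr2:74691641-74691940: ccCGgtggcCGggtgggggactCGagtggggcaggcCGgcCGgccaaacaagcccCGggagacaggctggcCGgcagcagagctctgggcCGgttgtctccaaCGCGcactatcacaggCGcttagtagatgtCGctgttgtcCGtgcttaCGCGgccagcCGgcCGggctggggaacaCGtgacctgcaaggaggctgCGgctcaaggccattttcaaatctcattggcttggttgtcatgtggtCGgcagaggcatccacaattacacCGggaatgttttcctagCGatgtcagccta
Hoxd4 promoter, chr2:74721728-74722027: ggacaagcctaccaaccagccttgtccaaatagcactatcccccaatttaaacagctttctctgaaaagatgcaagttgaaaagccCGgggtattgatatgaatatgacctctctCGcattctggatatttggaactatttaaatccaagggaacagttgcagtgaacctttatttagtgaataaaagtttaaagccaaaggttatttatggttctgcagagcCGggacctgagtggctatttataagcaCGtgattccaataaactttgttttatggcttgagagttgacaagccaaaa

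The Hoxd13 promoter holds 37 CG dinucleotides, the Hoxd10 promoter 22 and the Hoxd4 promoter 4, against a median of 7.0 over 32851 RefSeq promoters of the same build. The 2 array probes whose letters lie in the Hoxd13 promoter, at bases 109 to 157 and 219 to 263, had 3.36 and 3.65 in Dnmt1-KO, 1.00 and 0.57 in Eed-KO and 0.84 and 0.63 in WT. The probe in the Hoxd10 promoter, at bases 107 to 152, had 2.83 in Dnmt1-KO, 1.27 in Eed-KO and 0.86 in WT. The probe in the Hoxd4 promoter, at bases 25 to 84, has no CpG and had -0.40 in Dnmt1-KO, 0.41 in Eed-KO and 0.10 in WT. These promoters were chosen with the values known, so the wide range in Dnmt1-KO is not a result.

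Motifs of DNA-binding subunits of a variant PRC1 were searched on both strands. CACGTG, the E-box bound by Mga with Max, is in the promoters of Hoxd13, Hoxd11, Hoxd10, Hoxd4 and Hoxd1, that is in 5 of the 10 RefSeq promoters of the 9 members, and in 7.15% of all promoters. TCCCGC, the E2f6 site, is in those of Hoxd13 (5 matches), Hoxd3 (2), Hoxd11 (1) and Hoxd1 (1), that is in 4 of 10, and in 20.0% of all promoters. Each motif contains a CG, and 7 of the 10 promoters hold more CGs than the median promoter. In the printed sequences the E-box starts at base 22 of Hoxd13, 178 of Hoxd10 and 249 of Hoxd4. A match describes the letters and does not show a bound site.

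The flanking genes were read in the same way. Evx2 had the highest WT and Eed-KO levels of the region, with 2.45 ± 0.64 in Dnmt1-KO, 1.87 ± 0.53 in Eed-KO and 1.47 ± 0.37 in WT (74458432 to 74459303), and its Eed-KO level lay above 99.8% of all windows. Lnpk, which encodes an endoplasmic reticulum protein beyond Evx2, had 1.69 ± 0.52 in Dnmt1-KO, 0.24 ± 0.30 in Eed-KO and 0.53 ± 0.27 in WT. Mtx2, a mitochondrial protein gene beyond Hoxd1, had 1.35 ± 0.72 in Dnmt1-KO, 0.51 ± 0.30 in Eed-KO and 0.95 ± 0.30 in WT. In WT, Mtx2 lay above Hoxd9, Hoxd4, Hoxd3 and Hoxd1. Neither Lnpk nor Mtx2 was bound in Eed-KO or WT, and both were lower in Eed-KO than in WT by more than any HoxD window, with differences of -0.29 ± 0.33 at Lnpk and -0.44 ± 0.27 at Mtx2.

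The other Hox clusters give the nearest comparison, HoxA on the same array design and HoxB and HoxC on the other. HoxD had 8 of 8 windows bound in Dnmt1-KO, 4 in Eed-KO and 4 in WT. HoxA had 9 of 9, 4 and 4, HoxC had 8 of 8, 4 and 2, and HoxB had 6 of 7, 5 and 5 in the same order, against 46.1%, 5.76% and 5.15% of all windows. With a common spread the Dnmt1-KO counts were 2 in HoxD, 6 in HoxA, 3 in HoxC and 0 in HoxB (5.76% of all windows). The median Dnmt1-KO minus WT difference was 1.17 in HoxD and between 0.32 (HoxB) and 1.37 (HoxA) in the other 3 clusters, and with a common spread -0.020 in HoxD and between -0.33 (HoxB) and -0.031 (HoxA) in the others. The median Eed-KO minus WT difference was 0.08 in HoxD and between 0.05 and 0.06 in the other 3 clusters. With a common spread it was 0.021 in HoxD and between -0.053 (HoxB) and -0.012 (HoxA) in the others. In WT the highest members were Hoxd10 at 1.19, Hoxa11 at 1.26, Hoxb3 at 1.23 and Hoxc9 at 1.13. The WT ranges of the 4 clusters overlapped, and none of these differences was tested.

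**Figure D5:**
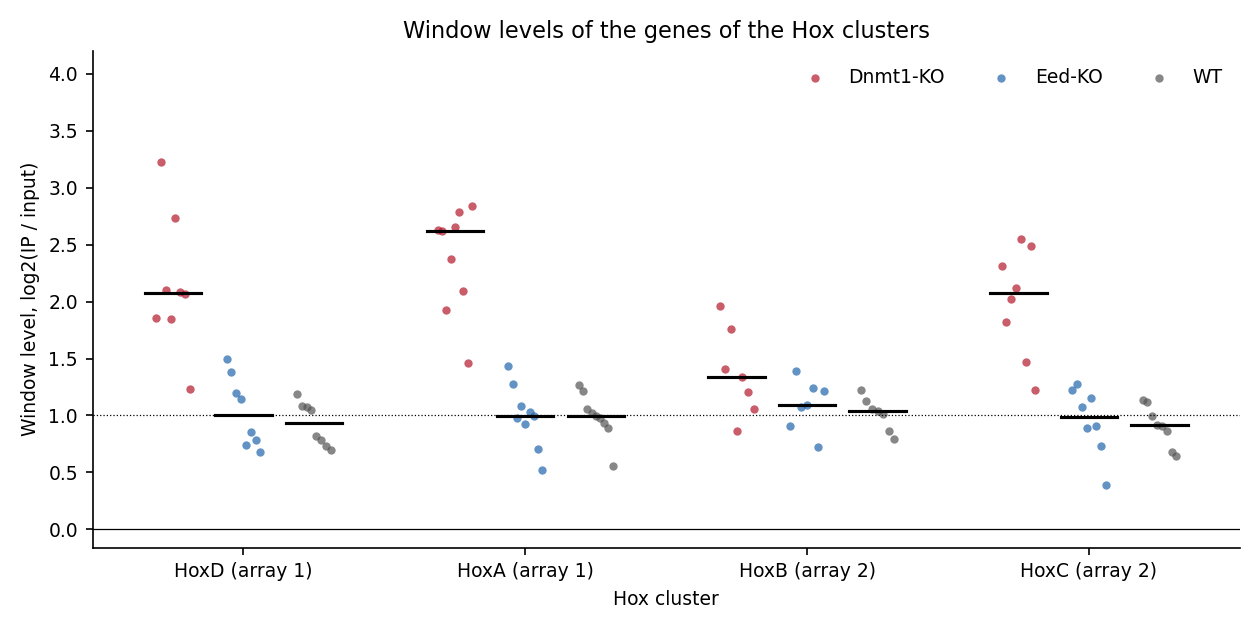
Window levels (points, 1 per gene) and their median (bars) in Dnmt1-KO, Eed-KO and WT for HoxD and HoxA (array 1) and HoxB and HoxC (array 2), with the dotted line at the bound level. WT and Eed-KO medians lie between 0.91 and 1.09 in all 4 clusters, and Dnmt1-KO medians between 1.34 in HoxB and 2.62 in HoxA before a common spread is set.

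In WT, the levels of genes that act with or upstream of HoxD were spread more widely than those of HoxD. Of 9 windows of the Hox cofactors of the Meis, Pbx and Pknox families, 6 were bound in Dnmt1-KO (2 with a common spread), 4 in Eed-KO and 4 in WT, beside the shares of all windows given above. In WT these were led by Pbx3 at 1.28 and Meis2 at 1.27, while Pknox1 was lowest at -0.26. Of 7 windows for 9 listed regulators of Hox transcription, 7 were bound in Dnmt1-KO (1 with a common spread), 2 in Eed-KO and 2 in WT, with Cdx2 at 1.46 and the retinoic acid-degrading enzyme gene Cyp26a1 at 1.41 in WT, and the retinoic acid receptor gene Rarg lowest at 0.34. Of 13 windows for 14 listed PRC2 and PRC1 subunits, 13 were bound in Dnmt1-KO and 0 in Eed-KO and in WT. In Dnmt1-KO, 0 were bound with a common spread and 8 with the GC trend removed (5.76% and 30.4% of all windows). In WT, Yaf2 (0.89) and Ezh2 (0.83) were highest and Ring1 (0.33) lowest. Outside the Hox clusters, the 3 promoters nearest to the median HoxD levels over the 3 genotypes were Gfod1, Cnnm1 and Slc32a1, at distances of 0.027, 0.041 and 0.046. Gfod1 had 2.10 in Dnmt1-KO, 1.00 in Eed-KO and 0.95 in WT.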

How the data were processed

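The scanner files hold red and green processed intensities that the authors deposited, per the file headers background-subtracted and dye-normalised by Agilent Feature Extraction. The headers name version 9.5.3.1 for WT and Eed-KO and 10.1.1.1 for Dnmt1-KO, whereas the submitters' processing notes list 9.5.3.1. The authors' deposited value table holds log10 ratios, which on each array were the scanner's log10 ratios shifted by a fixed amount (tolerance 0.001, at least 99.0% of probes); the origin of that shift is not stated. Ratios were log2 of red over green processed intensity as deposited, centred on the median of non-control probes, and probes with an outlier flag were left out (none of the HoxD probes had one). Gene assignment and coordinates came from the Dnmt1-KO files. Genes sharing a window were counted once. Names and promoter sequences came from RefSeq tables (GRCm38.p6), which matched 16943 of 17596 accessions and all 9 members. Analyses used Python 3.11.15, pandas 2.3.3, R 4.3.3 and limma 3.58.1 (normexp, offset 50), and the window search was tested on simulated ratios.

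The text names all HoxD members, the flanking genes, the extremes of each list (of the other Hox clusters only the highest member, since 1 item is not reported here), the 3 nearest promoters and the extreme probes. The members and lists were chosen with earlier results of these data known. The alternatives were normexp correction, the authors' table, a common spread, removal of a lowess GC trend (span 0.3), windows chosen on WT and Eed-KO, probes within 1 kb of the start, all probes of a gene, runs of 4 probes, dim or flagged probes filtered otherwise, and bound levels of 1.5-fold and 3-fold.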

Additional observations from a re-analysis of the deposited data

How the results depend on the processing

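The precision is limited by the number of arrays, 1 per genotype and design, and probe SDs hold no variation between cultures. No paired analysis was possible because each genotype has 1 array of each design, and for the same reason leaving out a replicate and blocking on slide or scanner were not run. The dim-input filter, the authors' value table and flagged spots kept changed no HoxD count and moved no HoxD median by more than its probe SD.

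With a common spread, the HoxD median level in Dnmt1-KO was 0.90 and 2 of 8 windows were bound (5.76% of all windows). The median differences Dnmt1-KO minus WT and Dnmt1-KO minus Eed-KO were then -0.020 and -0.0050. The Hoxd11 difference Dnmt1-KO minus WT was -0.16, and 32 HoxD probes reached 2-fold in Dnmt1-KO (2.51% of all probes). The mean over all probes of a gene gave 1.01 for the Dnmt1-KO level, 4, 0 and 1 bound windows in Dnmt1-KO, Eed-KO and WT (3.14%, 0.27% and 0.11% of all genes), and median differences of 0.25 against WT and 0.27 against Eed-KO. In Dnmt1-KO it also put Mtx2 at -0.34 and Ezh2 at -0.094. Probes within 1 kb of the start gave 2 bound members in Eed-KO and 2 in WT (1.69% and 1.45% of all genes). There Hoxd4 was at -0.18 and Hoxd3 at -0.17 in Dnmt1-KO, and the Hoxd4 differences were -0.39 against WT and -0.32 against Eed-KO. Windows chosen on WT and Eed-KO put Hoxd3 at -0.089 in Dnmt1-KO and the Hoxd9 differences at -0.042 against WT and -0.056 against Eed-KO. Runs of 4 probes gave -0.023 and -0.16 for those Hoxd9 differences. Normexp correction gave 2 bound windows in WT (2.50% of all windows). It put 49 and 52 HoxD probes at 2-fold in Eed-KO and WT (2.39% and 1.79% of all probes), a count chosen for this check after seeing the data. A bound level of 1.5-fold gave 8 and 8 bound windows in Eed-KO and WT (18.7% and 20.6% of all windows), and 3-fold gave 0 and 0 (0.70% and 0.28%). The causes were not tested, apart from the stricter or looser bound levels.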
